A study of Mus musculus with 41 samples.

Results

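SOX9 without its high-mobility-group (HMG) domain, the part that binds DNA, was compared with uninduced cells by CUT&RUN (CNR) for its MYC tag. The comparison rested on 2 pooled peak lists, 3980 peaks from dHMG-SOX9 cells with DOX and 2242 peaks from WT-SOX9 cells without DOX, 6222 peaks in all. Each list was called on 2 samples, so 4 of the 41 samples of the series stood behind it. A peak was called shared when it overlapped a peak of the other list by at least 1 bp, and otherwise dHMG-only or no-DOX-only. The question was whether MYC-tag signal of SOX9 that lacks its DNA-binding domain goes beyond the signal that the same antibody gives without the induced protein.

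All cells were keratinocytes cultured from back skin of male CD1 mice, of genotype K14rtTA, in which the keratin 14 promoter drives the DOX-dependent activator rtTA. The dHMG-SOX9 cells also carried TRE-myc-Sox9noHMG and received DOX at 1 µg per ml. The no-DOX cells carried TRE-myc-Sox9, that is full-length MYC-tagged Sox9, and received none. Both constructs were brought in by lentivirus and selected with puromycin, so both cell populations held a MYC-tagged Sox9 coding sequence in their genome. As dHMG-SOX9 cells without DOX were not among the lists, the effects of the construct and of DOX cannot be told apart. WT-SOX9 cells with DOX and dTA-SOX9 cells with DOX, whose SOX9 lacks the transactivation domain, served as yardsticks with 6671 and 11341 MYC-tag peaks.

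SOX9 is a transcription factor of hair follicle stem cells and a pioneer factor, that is, a factor that can engage its motif in closed chromatin. SOX proteins hold DNA through the HMG domain, which inserts into the minor groove and bends the helix, and SOX9 recruits co-activators through its transactivation domain. MLL3/4 are histone methyltransferases that mark enhancers with monomethylated H3K4, and here served as a map of active regulatory regions. In CNR an antibody tethers a nuclease that cuts and releases the DNA around its target, and such assays are known to give some background over open chromatin and satellite repeats.

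The sequences under 12 of the named peaks are given as examples, namely dHMG-only peaks with an AP1 or NF-Y word, dHMG-only peaks with no searched word, the strongest peak of both lists, the Sox9 exon and, for comparison, 2 no-DOX-only peaks. Each is a window of 101 bases around the centre of the maximum, from mm10 (GRCm38) on the plus strand, with the searched words in capitals. All words were searched on both strands. The SOX word was CCATTGT or CCTTTGT or GCATTGT or GCTTTGT. The AP1 word was TGAGTCA, the ETS word CCGGAAG, the SP/KLF word GGGCGG, the NF-Y word CCAAT and the NRF1 word GCGCATG. The GATA word had the forms AGATAAC and AGATAAG, and the E-box was CACGTG. None of these words contains another. A word is a match of letters and not a bound site.
dHMG-only, intron of Ankrd11, AP1 word, chr8:123022831-123022931: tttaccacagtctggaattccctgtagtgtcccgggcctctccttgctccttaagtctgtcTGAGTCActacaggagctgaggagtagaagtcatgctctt
dHMG-only, start of Ehd1, AP1 word, chr19:6297737-6297837: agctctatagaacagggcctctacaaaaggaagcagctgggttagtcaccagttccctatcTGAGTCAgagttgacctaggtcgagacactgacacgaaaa
dHMG-only, near Ier3, AP1 word, chr17:35813395-35813495: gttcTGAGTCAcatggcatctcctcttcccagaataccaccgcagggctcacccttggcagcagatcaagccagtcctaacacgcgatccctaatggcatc
dHMG-only, between genes near Pigt, NF-Y words, chr2:164522024-164522124: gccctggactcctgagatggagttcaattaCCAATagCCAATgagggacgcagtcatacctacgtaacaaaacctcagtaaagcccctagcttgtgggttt
dHMG-only, start of Sharpin, NF-Y word, chr15:76351175-76351275: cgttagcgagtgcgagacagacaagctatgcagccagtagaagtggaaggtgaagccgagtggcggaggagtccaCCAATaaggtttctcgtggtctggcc
dHMG-only, intron of Map3k20, no word, chr2:72309807-72309907: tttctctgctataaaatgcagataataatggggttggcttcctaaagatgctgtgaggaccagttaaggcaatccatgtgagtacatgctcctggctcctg
dHMG-only, start of Tpd52l2, no word, chr2:181496990-181497090: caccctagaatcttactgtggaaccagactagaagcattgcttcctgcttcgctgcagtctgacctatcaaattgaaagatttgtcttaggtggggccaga
dHMG-only, start of Wrap53 and Trp53, no word, chr11:69579288-69579388: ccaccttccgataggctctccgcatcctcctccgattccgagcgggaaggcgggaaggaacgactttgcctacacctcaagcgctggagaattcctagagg
shared, chromosome 2 repeat, no word, chr2:98667082-98667182: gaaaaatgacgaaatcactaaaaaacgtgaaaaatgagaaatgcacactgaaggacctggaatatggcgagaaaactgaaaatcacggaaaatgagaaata
shared, exon 1 of Sox9, GATA word, chr11:112782701-112782801: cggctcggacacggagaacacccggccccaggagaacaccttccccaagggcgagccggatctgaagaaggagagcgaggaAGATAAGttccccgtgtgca
no-DOX-only, start of Cdca3, NF-Y and ETS words, chr6:124830062-124830162: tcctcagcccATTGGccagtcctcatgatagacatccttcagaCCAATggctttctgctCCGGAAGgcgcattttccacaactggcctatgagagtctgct
no-DOX-only, Il18rap, AP1 word, chr1:40542775-40542875: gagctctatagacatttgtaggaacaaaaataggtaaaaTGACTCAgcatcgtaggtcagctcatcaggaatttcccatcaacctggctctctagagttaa

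The depth of each list could be read from its steps. The maximum signal of a peak is given in RPKM, reads per kb relative to library size, and all maxima of a list were whole multiples of 1 value, 247.8 RPKM for dHMG-SOX9 and 202.4 RPKM for no DOX. A single read was therefore worth 247.8 or 202.4 RPKM, which corresponds to 4.04 M and 4.94 M reads. The authors kept peaks above 1800 RPKM, so the weakest dHMG-SOX9 peak rested on 8 reads at its maximum and the weakest no-DOX peak on 9. Sequencing was from both ends of a fragment and each end can add a read, so a peak can rest on fewer fragments than reads. At this lower bound lay 2213 dHMG-SOX9 peaks (55.6% of the list) and 564 no-DOX peaks (25.2%). The same limit in RPKM thus admitted peaks of 8 reads with dHMG-SOX9 that the no-DOX list could not hold, and the main counts are given at equal reads as well. Intervals throughout are 95% Wilson intervals over peaks, or Newcombe intervals for differences. They cover counting error only, and as each group has 1 list there is no spread between samples and no test between the groups.

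The pooled lists could also be split by read length. Among peaks with under 2040 read-bases, the total signal of 99.9% of dHMG-SOX9 peaks was a sum of reads of 40 and 51 bases, a property of 31.7% of whole numbers of that size. The list of no-DOX replicate 1 alone held 6679 of 6681 such peaks without any read of 51 bases. Of the dHMG-SOX9 peaks, 2082 of 3920 (53.1%) held equal numbers of both lengths, against 793 of 2147 (36.9%) of the no-DOX peaks. The lowest total of the dHMG-SOX9 list, 364 read-bases or 4 reads of each length, was found in 1062 peaks (26.7% of the list). In 1018 of these 1062 peaks the width of the peak and the width of its maximum added up to 80 bp, the length of 2 reads of 40 bases, so the longer reads reached no further than the shorter ones. The labels call the samples biological replicates. Whether both samples hold separate molecules or are the same library read at both lengths was not tested, and in the latter case a peak rests on fewer molecules still. The counts of reads are therefore no counts of molecules, and no result here treats them as replicates.

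The dHMG-SOX9 list was the longer under limits in RPKM, and the no-DOX list under limits of 9 or more reads. With at least 9 reads at the maximum, 1767 dHMG-SOX9 peaks stood against 2242 no-DOX peaks, and with at least 12 reads 475 against 696. With at least 2200 RPKM in both lists, the order turned to 1767 against 931. At high signal the lists came closer in length on both scales, with 145 against 128 peaks at 3600 RPKM and 27 against 24 at 10000 RPKM, and 35 against 40 at 30 or more reads. In RPKM the excess of dHMG-SOX9 peaks narrowed as the limit rose, and at every equal number of reads from 9 to 30 the no-DOX list was the longer. Limits in reads do not correct for depth and favour the no-DOX list, which came from more reads. Limits in RPKM correct for depth but admit dHMG-SOX9 peaks of fewer reads. Which list is the longer therefore depends on the scale. The highest dHMG-only peak reached 5204 RPKM (21 reads) and the highest no-DOX-only peak, at Cdca3, 8299 RPKM (41 reads). In RPKM, with Cdca3 counted, 32 of 3445 dHMG-only and 27 of 1721 no-DOX-only peaks reached 3600 RPKM, 14 and 10 reached 4000 RPKM, and 1 of each reached 5000 RPKM, that of no DOX being Cdca3.

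**Figure D1:**
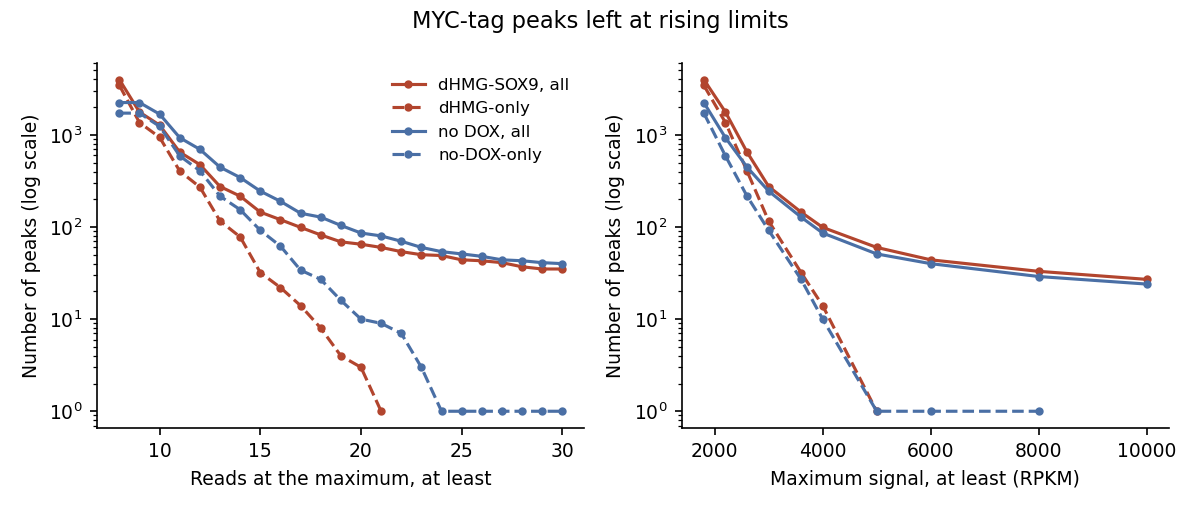
Number of MYC-tag peaks left (log scale) as the limit rises, in reads at the maximum (left) and in RPKM (right), for dHMG-SOX9 (red) and no DOX (blue), with all peaks as solid and unshared peaks as dashed lines. At 9 or more reads the no-DOX list is the longer (2242 against 1767 peaks), and at 2200 RPKM or more the dHMG-SOX9 list (1767 against 931). The dHMG-only peaks end at 21 reads.

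Of the dHMG-SOX9 peaks, 535 of 3980 (13.4%, interval 12.4 to 14.5%) were shared with no DOX, against 1.19% when the same peaks were moved by 10 kb. From the other side, 521 of 2242 no-DOX peaks (23.2%, interval 21.5 to 25.03%) were shared, against 2.10% when moved. The remaining 3445 dHMG-SOX9 peaks were dHMG-only and 1721 no-DOX peaks were no-DOX-only. WT-SOX9 and dTA-SOX9 peaks met a no-DOX peak less often, in 5.80% (5.27 to 6.39%) and 5.78% (5.37 to 6.23%). The lists of these forms are longer, and from the no-DOX side the order was another: dTA-SOX9 peaks overlapped 29.9% (28.03 to 31.8%) of no-DOX peaks, dHMG-SOX9 peaks 23.2% and WT-SOX9 peaks 17.7% (16.1 to 19.3%).

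Sharing depended on the strength of the peak. Of dHMG-SOX9 peaks with 8 reads 5.74% were shared, of those with 9 reads 15.0%, with 12 reads 22.5%, and with 14 or more reads 63.9% (57.3 to 70.0%, 138 of 216). The no-DOX list gave 14.01% at 9 reads and 55.2% (49.9 to 60.4%) at 14 or more. At 9 to 13 reads the share of each list lay within the interval of the other, and at 14 or more reads the intervals overlapped. By total signal, the RPKM summed over the bases of a peak, the highest decile of the dHMG-SOX9 list was shared in 56.8% and the lowest in 2.51%. The highest decile of the no-DOX list was shared in 72.0% and its lowest in 5.80%. The median shared peak stood at the 85.5th percentile of the dHMG-SOX9 list and the median dHMG-only peak at the 45.7th.

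**Figure D2:**
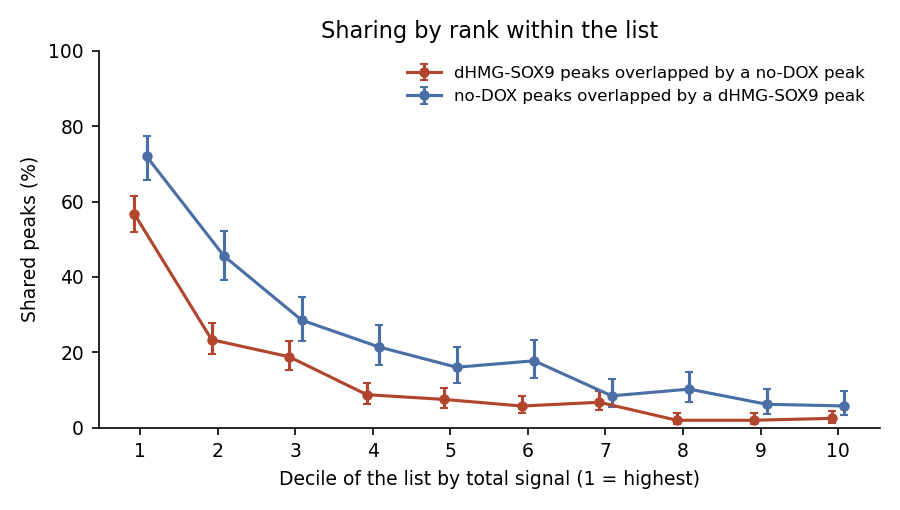
Share of peaks (%) overlapped by a peak of the other list in each decile of a list ranked by total signal, with 95% Wilson intervals, for dHMG-SOX9 (red) and no DOX (blue). Sharing falls from 56.8% to 2.51% and from 72.0% to 5.80% between the highest and the lowest decile. Peaks with equal total signal fill the lowest dHMG-SOX9 deciles.

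At 495 sites 1 peak of each list matched 1 peak of the other. The ratio of their maxima, dHMG-SOX9 over no DOX, had a median of 1.05 with quartiles of 0.878 and 1.22, and ranged from 0.396 to 2.67. Only 14 sites were above a ratio of 2 and 6 below 0.5. A site enters only where both lists pass 1800 RPKM, and the median shared dHMG-SOX9 peak reached 2478 RPKM, so ratios near 1 and the scarcity of large ratios are in part set by this limit. Across these sites, which are not independent replicates, Spearman's rho was 0.419 over all 495. It was 0.249 over the 343 sites outside dense runs of peaks whose central word of 31 bases occurs 1 time in the genome. That class still holds repeats, such as chr9:35305213-35305592, which is 91.1% repeat-masked.

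Of the 5 highest shared peaks, 2 were mostly repeat-masked and 1 lay on exon 1 of Sox9. The other 2 were neither, but their windows held a long stretch of near-identical sequence in common. Their low masking therefore does not make them unique sequence. The top peak of both lists, chr2:98666544-98667334, was 99.2% repeat-masked and reached 757060 RPKM (3055 reads) in dHMG-SOX9 and 722380 RPKM (3569 reads) without DOX. A block of 5 dHMG-SOX9 and 4 no-DOX peaks around it, chr2:98662230-98667334, took 18.4% and 24.2% of the total signal of the lists. Next came chr9:35305213-35305592, 91.1% repeat-masked, with 817 and 940 reads. These 2 followed, an intron of Chl1 with 686 and 781 reads at chr6:103649047-103649293 (27.5% repeat-masked), and chrX:143482923-143483112 near Pak3 with 482 and 587 reads (12.1% repeat-masked). In all 4 the no-DOX list held the larger number of reads, and the ratios in RPKM lay between 1.01 and 1.08 at the 3 sites matched 1 to 1.

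Among the matched sites, the largest ratio was in an intron of Bms1, a ribosome biogenesis gene, at chr6:118388302-118388677, with 61 reads (15116 RPKM) in dHMG-SOX9 and 28 reads (5667 RPKM) without DOX. Exon 1 of Sox9 followed with a ratio of 2.64. A repeat near Sulf1 had 21 against 10 reads (ratio 2.57), the start of Sin3a, a co-repressor, 18 against 9 (2.45) and that of Rpl41, a ribosomal protein, 17 against 10 (2.08). The lowest ratio, 0.396, belonged to chr1:24612649-24612852, a nuclear copy of mitochondrial sequence, with 339 against 1048 reads.

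**Figure D3:**
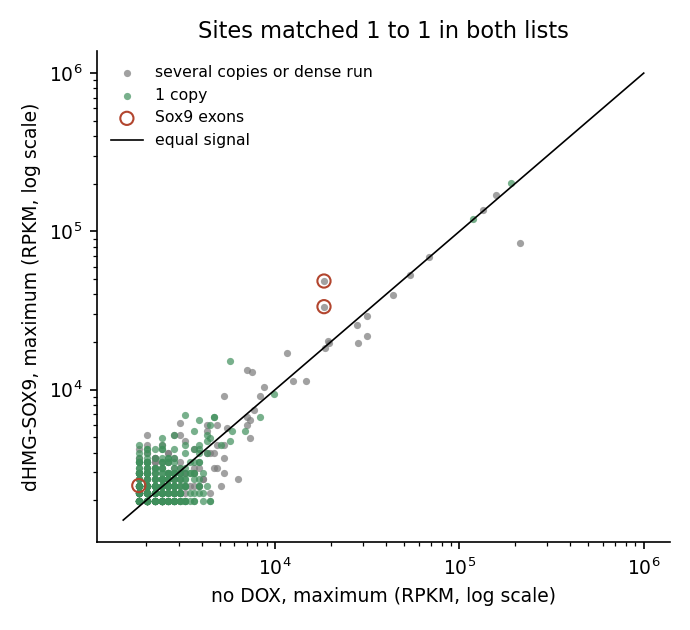
Maximum signal (RPKM, log scales) at the 495 sites matched 1 to 1, no DOX on the horizontal and dHMG-SOX9 on the vertical axis, with single-copy sites in green, sites of several copies or in dense runs in grey, Sox9 exons ringed and the line of equal signal. Most sites lie along the line (median ratio 1.05), and Sox9 exons 1 and 2 lie above it.

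Exon 1 of Sox9 held the second largest ratio of dHMG-SOX9 to no DOX among the matched sites, with 196 against 91 reads. Sox9 lies on the plus strand of chromosome 11, with exon 1 at 112782224-112783015, exon 2 at 112783809-112784062 and exon 3 at 112784672-112787760. On exon 1 the maximum was 48571 RPKM in dHMG-SOX9, 18419 in no DOX, 8044 in WT-SOX9 and 18255 in dTA-SOX9. On exon 2 it was 33454 RPKM (135 reads), 18419 (91 reads), 8372 and 11281. On exon 3 it was 2478, 1822 and 2462 RPKM, and the dTA-SOX9 list held no peak there. The ratio of dHMG-SOX9 to no DOX was 2.64, 1.82 and 1.36 on exons 1, 2 and 3, so exons 1 and 2 rank dHMG-SOX9 first and WT-SOX9 last among the 4 lists.

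Most bases of these peaks were coding. On exon 1, where the coding sequence starts at 112782585, the first base of the peak lay at +1 bp from that start in dHMG-SOX9, at -2 in no DOX, at 0 in WT-SOX9 and at +4 in dTA-SOX9. At the other end the dHMG-SOX9 peak ran 56 bp past the exon into the intron, whereas the last base lay at +1 bp from the end of the exon in no DOX and at 0 in WT-SOX9 and dTA-SOX9. On exon 2 the dTA-SOX9 peak ran 25 bp into the next intron, and the last base of the other lists lay within the exon. Of the peak bases 88.5%, 98.4% and 100% were coding on dHMG-SOX9 exons 1, 2 and 3, and 89.8% of those of dTA-SOX9 on exon 2. The in vivo SOX9 lists at D0, before DOX, and after 1 week of DOX held no peak in Sox9 or within 50 kb of it. The MLL3/4 lists of cultured cells also held peaks on the exons of Sox9, 3 without DOX and 4 in dHMG-SOX9 cells. Peaks there are thus not particular to the MYC tag. Whether the reads came from the chromosomal gene or from the integrated construct, which carries the coding sequence, cannot be told apart. The lists hold no signal per base. For the SOX9 versions the study's methods refer to a figure that was not read here, and the text used here does not give the extent of the deletion.

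**Figure D4:**
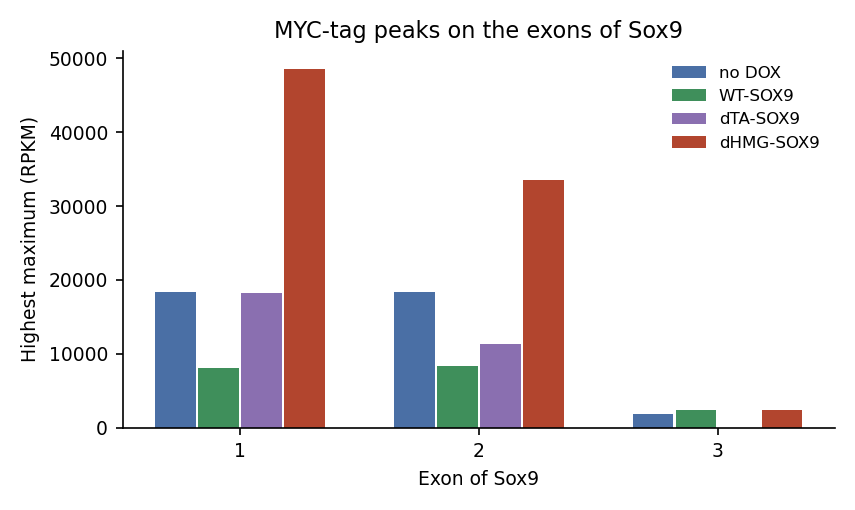
Highest MYC-tag maximum (RPKM, linear axis from 0) on each exon of Sox9 in the no-DOX, WT-SOX9, dTA-SOX9 and dHMG-SOX9 lists, 1 list each and no error bars. On exons 1 and 2 dHMG-SOX9 reaches 48571 and 33454 RPKM, above all other lists.

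Promoters, within 1 kb of an annotated transcription start, held 60% (55.8 to 64.1%) of the shared dHMG-SOX9 peaks, 26.2% (24.7 to 27.6%) of dHMG-only and 36.8% (34.6 to 39.1%) of no-DOX-only peaks. The same peaks moved by 10 kb met a promoter in 18.1%, 10% and 12%. All classes thus sat at promoters beyond their surroundings, the shared ones most. The dHMG-only share was below the no-DOX-only share by -10.7 percentage points (-13.4 to -7.99). With 9 or more reads in both, the shares were 30.98% of 1359 and 36.8% of 1721, a difference of -5.86 points (-9.19 to -2.49), and with 12 or more reads 35.1% and 48.9%. For settings that change the lists themselves, namely equal size, limits in RPKM and the list of no-DOX replicate 1 alone, sharing was called anew among the peaks left, so the unshared classes can hold peaks that were shared before. The replicate 1 list was not cut at 1800 RPKM and reached down to 2 reads. Leaving out replicate 2 thus also changed the signal limit of no DOX, and the effects of both cannot be told apart. Lists of equal size gave a difference of -4.17 points (-7.31 to -1.03). At 2200 RPKM or more the shares were 33.4% and 47.9%, a difference of -14.4 points (-18.9 to -9.93), and without no-DOX replicate 2 the shares were 24.4% and 26.9%, a difference of -2.53 points (-4.39 to -0.639). Introns held 36.3% of dHMG-only and 32.1% of no-DOX-only peaks, intergenic sequence 34.7% and 29.2%, and exons 2.82% and 1.86%.

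Repeats made up more of the dHMG-only peaks in the full lists, at equal reads and at 2200 RPKM or more, but not beyond counting error in lists of equal size or above 3600 RPKM. At least 50% of the bases were repeat-masked in 19.8% (18.5 to 21.1%) of dHMG-only, 13.8% (12.2 to 15.5%) of no-DOX-only and 11.4% (8.98 to 14.4%) of shared peaks, below the 27.1%, 25.7% and 28.1% of the shifted positions. The difference of 5.997 points (3.85 to 8.06) between dHMG-only and no-DOX-only peaks was 4.70 points (2.09 to 7.35) at 9 or more reads. It was 2.12 points (-0.202 to 4.44) in lists of equal size, 6.16 points (2.94 to 9.13) at 2200 RPKM or more and 5.07 points (-6.95 to 16.3) above 3600 RPKM. Without no-DOX replicate 2, and so without the 1800 RPKM limit for no DOX, it was 12.8 points (11.3 to 14.5). High-copy sequence showed another order: a word of 31 bases around the maximum occurred more than once in the genome in 11.8% of shared, 4.53% of dHMG-only and 4.76% of no-DOX-only peaks. Dense runs were 4 or more peaks, counted over both lists together, each within 20 kb of the next. They held 30.7% of shared, 4.62% of dHMG-only and 7.38% of no-DOX-only peaks. A shared site counts in both lists, so the higher share of shared peaks is in part set by this definition. The longest run was over Sfi1, a spindle-associated gene on chromosome 11 at 3131971-3199594, with 91 dHMG-SOX9 peaks of which 53 were shared, and 86 no-DOX peaks of which 49 were. Runs on chromosomes 9 (3000002-3038267, 26 and 30 peaks) and 14 (19415709-19419700, 11 and 11 peaks) had similar numbers in both lists.

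Peaks unique to dHMG-SOX9 were narrow. The median width was 92 bp (quartiles 72 and 125) for dHMG-only, 114 bp (88 and 154) for no-DOX-only and 154 bp (104 and 213) for shared dHMG-SOX9 peaks. With 9 or more reads the dHMG-only median was 105 bp. Their median GC content was 46.3%, against 48.8% for no-DOX-only and 50.7% for shared peaks. The median dHMG-only peak lay 6503 bp from the nearest transcription start, the median no-DOX-only peak 3710 bp and the median shared peak 328 bp.

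**Figure D5:**
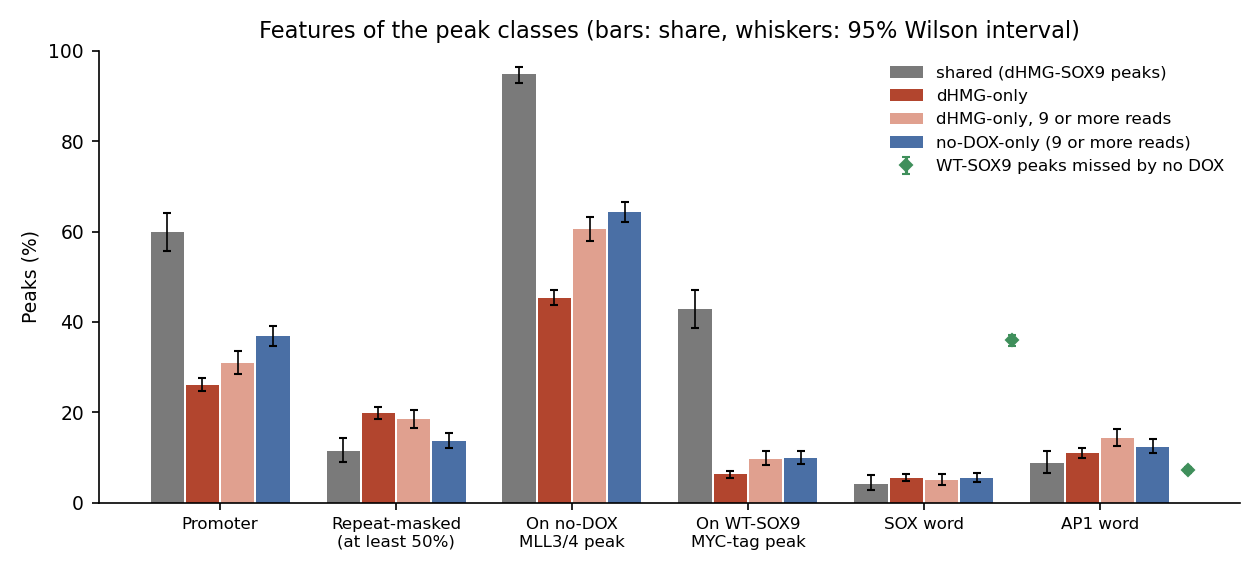
Share of peaks (%) with each feature, bars with 95% Wilson intervals, for shared dHMG-SOX9 peaks (grey), dHMG-only peaks (red), dHMG-only peaks of 9 or more reads (pale red) and no-DOX-only peaks (blue). Green diamonds give the words at WT-SOX9 peaks that no uninduced peak overlapped. The SOX word is near 5% in all bar classes and 35.9% at the WT-SOX9 peaks.

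The SOX word was no more frequent in dHMG-only windows than around them. It stood in 5.46% (4.75 to 6.27%) of dHMG-only windows and 5.60% of windows 1 kb to each side. In no-DOX-only windows it stood in 5.46% (4.48 to 6.64%) against 6.77%, and in shared windows in 4.11% (2.73 to 6.15%) against 5.61%. WT-SOX9 peaks outside the uninduced list had it in 35.9% (34.7 to 37.1%) against 6.54%, dTA-SOX9 peaks outside that list in 12.8% (12.2 to 13.5%) against 6.60%, and the starts of protein-coding transcripts in 4.47% of 54363 windows of the same length. Between dHMG-only and no-DOX-only windows the difference was -0.00476 points (-1.38 to 1.26), and at 9 or more reads -0.458 points (-2.03 to 1.16). A difference as large as that between WT-SOX9 windows and their surroundings lay far outside these intervals.

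Words of other factors were present in both classes. AP1, the FOS and JUN family word that marks open enhancers of keratinocytes, stood in 11% (10 to 12.1%) of dHMG-only windows, 12.4% (10.9 to 14.02%) of no-DOX-only windows and 8.79% of shared windows, against 1.96%, 2.09% and 1.96% in the windows beside them. Starts of protein-coding transcripts held it in 1.24%. The word of NF-Y, a promoter factor, stood in 17.1%, 23.4% and 35.5%, against 13.6%, 14.1% and 10.8%, and that of SP/KLF in 8.94%, 11.7% and 21.5%. At 9 or more reads the AP1 word differed by 1.97 points (-0.436 to 4.43) between dHMG-only and no-DOX-only windows, and the NF-Y word by -4.89 points (-7.74 to -1.99). The GATA word stood in 2.26% of dHMG-only windows, against 2.32% beside them, and the E-box in 2.64% against 1.41%. The ETS word stood in 1.48% against 0.479% beside them, and the NRF1 word in 0.871% against 0.232%.

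In the full lists MLL3/4 peaks covered less of the dHMG-only class than of the others. A no-DOX MLL3/4 peak overlapped 94.95% (92.8 to 96.5%) of shared peaks, 45.4% (43.7 to 47.1%) of dHMG-only and 64.3% (62.0 to 66.6%) of no-DOX-only peaks, against 11.03%, 2.76% and 4.36% of the shifted positions. At 9 or more reads the dHMG-only share was 60.6%, a difference of -3.76 points (-7.21 to -0.323) from no-DOX-only, and at 12 or more reads 71.6% against 81.1%. With sharing called anew, the difference was -16.5 points (-20.3 to -12.4) at 2200 RPKM or more, with 63.3% against 79.7%. Above 3600 RPKM it was 0.114 points (-9.67 to 10.8), with 91.8% of 73 against 91.7% of 60 peaks. Without no-DOX replicate 2, and so without the 1800 RPKM limit for no DOX, the difference was -9.25 points (-11.4 to -7.10). MLL3/4 peaks found in dHMG-SOX9 cells but not without DOX covered 66 dHMG-only peaks (1.92%) and 32 no-DOX-only peaks (1.86%). The 1815 dHMG-only peaks outside both MLL3/4 lists (52.7%) had a median of 8 reads and of 77 bp, and the AP1 word in 3.75%. Neither the WT-SOX9 and dTA-SOX9 MYC-tag lists, nor the in vivo SOX9 lists of D0 and 1 week, nor either MLL3/4 list overlapped 1732 dHMG-only peaks (50.3%, 48.6 to 51.9%) and 543 no-DOX-only peaks (31.6%, 29.4 to 33.8%).

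Overlap with the binding-competent proteins did not differ beyond counting error between the unshared classes at equal reads. WT-SOX9 peaks overlapped 6.27% (5.51 to 7.13%) of dHMG-only and 9.88% (8.56 to 11.4%) of no-DOX-only peaks, against 0.566% and 0.988% of the shifted positions. At 9 or more reads the shares were 9.79% and 9.88%, a difference of -0.0914 points (-2.19 to 2.06), whereas at 2200 RPKM or more, with sharing called anew, they were 11.5% and 17.7%, a difference of -6.14 points (-9.60 to -2.91). For dTA-SOX9 the shares were 18.6% and 24.7% over the full lists, a difference of -6.12 points (-8.56 to -3.73), and at 9 or more reads 27.1% and 24.7%, a difference of 2.38 points (-0.722 to 5.51). Seen from WT-SOX9, 203 of its 6284 peaks missed by no DOX carried a dHMG-SOX9 peak (3.23%, 2.82 to 3.70%), against 0.271% of the shifted positions, and from dTA-SOX9 612 of 10685 (5.73%, 5.30 to 6.18%). The 113 dHMG-only peaks on both WT-SOX9 and dTA-SOX9 peaks held the AP1 word in 30.97% and the SOX word in 10.6%, and the 527 on dTA-SOX9 alone held them in 23.0% and 6.64%. The matching 73 no-DOX-only peaks on both held them in 17.8% and 9.59%, and the 352 on dTA-SOX9 alone in 27.6% and 7.67%. Of the 103 dHMG-only peaks on WT-SOX9 alone, 65.0% were promoters and 4.85% held the SOX word. In vivo, SOX9 peaks after 1 week of DOX overlapped 23.4% of dHMG-only, 35.1% of no-DOX-only and 65.6% of shared peaks. At 9 or more reads the dHMG-only share was 32.0%, a difference of -3.09 points (-6.42 to 0.277) from no-DOX-only.

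The 8 dHMG-only peaks of highest total signal were weak, and all 8 lay on MLL3/4 peaks of both cell populations. At the 1 on exon 3 of Sox9, signal of the gene and of the integrated construct cannot be told apart. An intron of Map3k20, which encodes a stress-activated kinase, came first at chr2:72309685-72310161 with 477 bp and 10 reads (2478 RPKM). Next came chr2:164521847-164522256 near Pigt, with 14 reads and the pair of NF-Y words printed above. An intron of Ankrd11, a chromatin regulator, held 16 reads at chr8:123022805-123023023, and the start of Ehd1, an endocytic gene, 15 reads at chr19:6297656-6297908. Both of these windows and that near Ier3, an immediate early gene (chr17:35813241-35813565, 12 reads), held the AP1 word printed above. The start of Sharpin, a component of the linear ubiquitin ligase, had 12 reads at chr15:76351011-76351283. None of these peaks reached 4000 RPKM. Peaks in Sfi1 (chr11:3135477-3135825, 10 reads) and on exon 3 of Sox9 (chr11:112784695-112784946, 10 reads) completed the 8. The Map3k20, Ankrd11, Ehd1 and Sfi1 peaks also overlapped a peak of the no-DOX replicate 1 list, which the authors had not cut at 1800 RPKM, as did 300 of all 3445 dHMG-only peaks (8.71%, 7.81 to 9.70%).

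By maximum, the highest dHMG-only peak was at the start of Tpd52l2, a tumour protein D52 family gene, at chr2:181496996-181497102 with 21 reads (5204 RPKM). A peak near Dsg2, a desmosomal cadherin, had 20 reads, and so did an exon of the olfactory receptor gene Olfr2, in a peak of 65 bp that was 100% repeat-masked and whose central word occurs 1307 times in the genome. The shared start of Wrap53 and Trp53, the gene of the p53 tumour suppressor, had 19 reads at chr11:69579300-69579470. The Tpd52l2, Dsg2 and Trp53 peaks lay on MLL3/4 peaks of both populations and the Olfr2 peak on none. The Tpd52l2 and Olfr2 peaks also lay on WT-SOX9 peaks and the Dsg2 peak on a dTA-SOX9 peak. Uninduced cells had signal at some of them too: the Tpd52l2 and Dsg2 peaks overlapped a peak of the no-DOX replicate 1 list. The Dsg2 peak also overlapped an in vivo SOX9 peak of D0.

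The highest no-DOX-only peaks were also found at genes. The start of Cdca3, a cell division gene, had 41 reads at chr6:124830012-124830176 and 0 in the dHMG-SOX9 list. An exon of Kmt2c, which encodes MLL3, had 23 reads (4655 RPKM) at chr5:25387797-25388111. The shared start of Cdca2 and Kctd9 had 16 reads with an NF-Y word at chr14:67715683-67716065, and Il18rap, an interleukin receptor gene, 17 reads with an AP1 word at chr1:40542504-40542929. Unshared peaks at starts of genes thus occurred without the mutant protein too.

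At loci the study names, dHMG-SOX9 left little signal. Within 50 kb of Gata3 and Trp63, transcription factors of the epidermis, the dHMG-SOX9 list held 1 peak each, of 8 and 10 reads. The Trp63 peak (chr16:25714960-25715021) coincided with a WT-SOX9 peak of 14 reads, and no other MYC-tag list had a peak there. At Krt5, the keratin of basal cells, 2 peaks had 8 reads each, and the peak 2051 bp before the start overlapped a WT-SOX9 peak of 16 reads. Runx1 had 0 dHMG-SOX9 and 5 WT-SOX9 peaks, Vim 0 and 2, and Ctnnb1 0 and 1. No DOX gave 1 peak each at Gata3, Trp63, Runx1 and Krt5 and 0 at Ctnnb1 and Vim, so the number of peaks over these 6 loci was 4 in both lists. None of the peaks at these loci was shared.

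Promoter peaks of dHMG-SOX9 were then counted over lists of genes. Of all 21911 protein-coding genes, 5.32% had a dHMG-SOX9 promoter peak, 4.19% a no-DOX one, 4.08% a dHMG-only one and 2.98% a no-DOX-only one. Ribosomal protein genes had dHMG-SOX9 peaks at 15 of 83 (18.1%, 11.3 to 27.7%) and no-DOX peaks at 8 of 83 (9.64%, 4.97 to 17.9%), and 4 genes had both. Rps27a had 11 reads and none without DOX, Rpl41 17 and 10, Rpl10 10 and 13 and Rps26 12 and none. Replication-dependent histone genes had them at 12 and 11 of 67, with 38 and 49 reads at Hist1h2bm and 22 and 18 at the shared start of Hist1h2ag and Hist1h2bj. Neighbouring histone genes share peaks and are not independent.

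AP-1 genes had dHMG-SOX9 promoter peaks at 4 of 16, namely Jun (9 reads), Atf3 (10), Atf7 (8) and Fos (8), against 1 of 16 without DOX, Junb with 9 reads. Stress response genes had them at 5 of 22, with Trp53 (19 reads) before Hspa8 (10), Mdm2 (8) and Xbp1 (8), against 1 of 22 without DOX, Hspa8 with 11. Epidermal genes had 3 of 22 in each list, with Dsg3 (8 reads) and Ovol1 (12) among those of dHMG-SOX9. Hair follicle stem cell genes had 1 of 16, Tcf7l1 with 8 reads, and 0 of 16. MLL3/4 and SWI/SNF subunits had 0 of 23 (interval 0 to 14.3%), and Actl6a alone without DOX. Of the 9 AP-1 and stress response genes 5 had peaks of 8 reads, which is under the lower bound of the no-DOX list.

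The labelled cell type was looked up in the MLL3/4 lists. Without DOX, 7 of 10 keratinocyte genes had an MLL3/4 promoter peak, Krt5, Krt14 and Krt15 among them. In dHMG-SOX9 cells 5 of 10 had one, Krt5 and Krt14 but not Krt15 among them. Trp63, Itga6 and Itgb4 had none in either population. All protein-coding genes had one in 23.3% without DOX and in 18.5% in dHMG-SOX9 cells. Of 6 fibroblast and 4 melanocyte genes 0 had one in either population. Of 4 immune genes Csf1r had one in both, and of 3 endothelial genes Pecam1 had one without DOX.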

How the data were processed

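Per the study's methods, the authors used Skewer for trimming, Bowtie2 2.2.9 for alignment to mm10, Picard against duplicates and SAMtools 1.3.1 to keep fragments up to 120 bp. They then combined replicates, made tracks with deepTools 3.1.2 and called peaks with SEACR in stringent mode at 0.01. The deposited maximum signal of the MYC-tag and SOX9 peaks is in RPKM, cut by the authors at 1800 in pooled lists. The deposited total signal of these lists is the RPKM summed over the bases of a peak, and that of the MLL3/4 lists is unscaled coverage, used for positions only. Tool versions are those of the submitters' processing notes.

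Lists were read with Python 3.11.15, numpy 2.4.6, pandas 2.3.3, scipy 1.17.1 and matplotlib 3.10.9. Genes were those of GENCODE vM21, masked bases those in lower case in the RefSeq copy of GRCm38, and mitochondrial likeness came from BLAST 2.17.0. Coordinates count from 1, and 0 peaks ended beyond a chromosome. Reads behind a peak are its maximum divided by the RPKM of 1 read. The overlap and interval steps were tested on simulated data. Differences are Newcombe intervals over peaks, and with 1 list a group no p-value was computed.

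The named peaks were, at most 1 per 1 Mb, the 8 dHMG-only, 5 shared and 5 no-DOX-only peaks of highest total signal and the 4 dHMG-only peaks of highest maximum. Of a gene list at most 4 members were named, those with dHMG-SOX9 peaks first, and more were named among the keratinocyte genes. Loci were Sox9, Gata3, Trp63, Runx1, Krt5, Ctnnb1 and Vim with 50 kb to each side. Sites at either end of the ratio, the read lengths and genes named for the no-DOX list alone were chosen after their values were seen. The members and lists were chosen with earlier results of these data known. Alternatives changed the overlap, list size, signal limits, merging, chromosomes, no-DOX list, dense runs, promoters, repeats, words and MLL3/4 list. The limits of 2200 RPKM and of 12 reads were added after seeing the data.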

Additional observations from a re-analysis of the deposited data

How the results depend on the processing

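Across 73 recomputed values, 26 moved by less than their counting interval and 47 by more. Where peaks were left out of a list, sharing was called anew among those left, so the unshared classes differ from those of the report at the same limit. The reported values were 13.4% (shared dHMG-SOX9 peaks), 23.2% (shared no-DOX peaks), and, of dHMG-only peaks, 26.2% promoters, 19.8% repeats, 5.46% SOX words and 45.4% on no-DOX MLL3/4 peaks. An overlap of 50% of the shorter peak and autosomes alone moved none of the 6. In the same order, lists of equal size gave 21.1%, 20.6%, 33.2%, 15.6%, 4.46% and 61.6%. For the other limits the SOX word stayed within its interval, and the remaining values in the same order were 49.7%, 53.1%, 53.4%, 15.1% and 91.8% above 3600 RPKM, 23.1%, 17.8%, 30.98%, 18.5% and 60.6% at 9 or more reads, 16.2%, 29.5%, 33.4%, 17.3% and 63.3% at 2200 RPKM or more, and 30.5%, 20.3%, 41.2%, 14.5% and 76.1% at 12 or more reads. Without no-DOX replicate 2 the values were 20.4%, 12.4%, 24.4%, 21.6% and 40.9%, and with the union of the pooled and replicate 1 lists 20.98%, 12.03%, 24.3%, 21.5% and 40.6%. With lists of equal size, at 9 or more and at 12 or more reads, without no-DOX replicate 2 and with the union list, the shared share of dHMG-SOX9 exceeded that of no DOX, opposite to the reported order. In these settings the dHMG-SOX9 list held at most as many peaks as the no-DOX list. The replicate 1 list is longer, was not cut at 1800 RPKM and is no independent check of the pooled one. In 1488 of 1860 no-DOX peaks its reads equalled the 40-base reads of the pooled peak.

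Leaving out dense runs gave 10.1% and 18.7% for the shared shares and 43.7% on MLL3/4 peaks. Merging peaks within 500 bp gave 12.3% of dHMG-SOX9 peaks shared. Promoters of 2.5 kb held 34.5% of dHMG-only and 45.0% of no-DOX-only peaks, and starts of protein-coding transcripts 20.7% and 31.4%. Repeats made up 8.16% at 80% masked bases and 21.6% by the centre of the maximum. The SOX word stood in 11.3% of windows of 100 bp to each side, and the longer words in 0.958%. The MLL3/4 list of dHMG-SOX9 cells overlapped 40.7%. No paired analysis was possible because each group is 1 pooled list without replicate columns. In every setting where both lists were cut alike, namely equal size, 9 or more reads, 2200 and 3600 RPKM, the promoter share was lower in dHMG-only than in no-DOX-only peaks, though above 3600 RPKM the interval of the difference of -11.6 points (-27.2 to 5.17) included 0. Depth limits the comparison, since 2213 of 3980 dHMG-SOX9 peaks rest on 8 reads.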

Other observations

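Peaks of both lists were spread unevenly over the chromosomes. Relative to the genome, and per Mb of known sequence, chromosome 11 held 2.15 times the mean density of dHMG-SOX9 peaks and 2.65 times that of no-DOX peaks. Without dense runs, such as that over Sfi1, these were 1.59 and 1.76, below the 1.95 and 2.12 of chromosome 18 and the 1.83 and 2.04 of chromosome 19. With all peaks the values were 1.95 and 2.05 on chromosome 18, 1.84 and 2.09 on chromosome 19, 1.56 and 1.65 on chromosome 6 and 1.53 and 1.44 on chromosome 2. Chromosome Y held 0 peaks of either list, and the next lowest were chromosome X with 0.346 and 0.282 and chromosome 14 with 0.466 and 0.476. In vivo, SOX9 peaks after 1 week of DOX had densities of 1.40 on chromosome 11, 0.973 on chromosome 18, 1.43 on chromosome 19, 1.03 on chromosome 6, 1.09 on chromosome 2 and 0.196 on chromosome X. The MLL3/4 peaks of cultured cells without DOX had 1.66, 1.5, 1.67, 1.27, 1.34 and 0.309 in the same order.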
